A study of Mus musculus with 7 samples.

Results

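Myoc, Adgrf5 and Igkc are 3 of the 52459 gene names counted in bulk RNA sequencing of mouse articular chondrocytes, chosen because their CPM, read counts scaled to the size of the library, were more than 15-fold lower after TGFb1 than after vehicle. The contrast of TGFb1 with vehicle therefore chose these genes, and their values in it are given below as a description with no test. The cells were primary chondrocytes digested from the femoral head and cultured in high-glucose DMEM with 10% fetal bovine serum. They received vehicle, TGFb1 at 5 ng/ml or BMP2 at 100 ng/ml for 24 h, which gave 2 Vehicle libraries (replicates 1 and 2), 2 TGFb libraries (replicates 1 and 3) and 3 BMP2 libraries (replicates 1, 2 and 3). No genotype, strain or age is given in the labels, and all 7 libraries came from cultured cells in the same serum. The labels do not say whether replicates were separate animals, cultures or repeat libraries. The p-values therefore set differences only against the spread between these libraries, and that spread may be technical.

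Myocilin, the product of Myoc, is a secreted glycoprotein with an olfactomedin domain, best known from the trabecular meshwork of the eye, where glucocorticoids induce it and where altered forms of it cause glaucoma. Adgrf5 encodes the adhesion G protein-coupled receptor GPR116, which limits surfactant in lung alveolar type II cells, is also made by endothelium, and signals through the Gq and G11 proteins. Igkc encodes the constant region of the immunoglobulin kappa light chain, a product of B cells and plasma cells. TGFb1 and BMP2 are ligands of the same superfamily that signal mainly through SMAD2/3 and SMAD1/5.

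In the mm10 build (GRCm38, GENCODE M21), Myoc (ENSMUSG00000026697) lies on the plus strand at chr1:162639155-162649693, with 1 annotated transcript of 3 exons and 2074 nt, of which 1470 are coding. Adgrf5 (ENSMUSG00000056492) lies on the plus strand at chr17:43360451-43459557 and has 6 annotated transcripts, the principal one with 21 exons and 8535 nt, of which 4044 are coding. Igkc (ENSMUSG00000076609) lies on the plus strand at chr6:70726435-70726966 as a single constant-region exon of 532 nt, of which 320 are coding. The genes thus sit on different chromosomes and differ in exon structure and length. Myoc shares 93 exon bases (4.48% of its own) with Myocos on the minus strand, which was not analysed here; whether reads were counted by strand was not given in the sources used here.

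For Myoc and Adgrf5, the 250 bases before the RefSeq starts are shown because both transcripts were low after a ligand that acts through SMAD proteins. They are RefSeq sequences of GRCm38.p6, plus strand, 5′ to 3′, at chr1:162638900-162639149 for Myoc and at chr17:43360181-43360430 and chr17:43389216-43389465 for the 2 starts of Adgrf5. Distances are counted from these RefSeq starts, each of which follows directly on its window. For Myoc the start lies a few bases before the GENCODE start given above, and the first start of Adgrf5 lies further before its GENCODE start. The second start of Adgrf5 lies within the gene. Capitals mark each SMAD box (GTCT, or AGAC where the motif is on the minus strand).
Myoc: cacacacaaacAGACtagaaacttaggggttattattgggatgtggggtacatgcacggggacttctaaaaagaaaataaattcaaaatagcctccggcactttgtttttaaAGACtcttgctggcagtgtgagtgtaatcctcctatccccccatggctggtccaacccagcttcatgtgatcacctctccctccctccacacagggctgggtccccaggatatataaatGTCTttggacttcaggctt
Adgrf5, first start: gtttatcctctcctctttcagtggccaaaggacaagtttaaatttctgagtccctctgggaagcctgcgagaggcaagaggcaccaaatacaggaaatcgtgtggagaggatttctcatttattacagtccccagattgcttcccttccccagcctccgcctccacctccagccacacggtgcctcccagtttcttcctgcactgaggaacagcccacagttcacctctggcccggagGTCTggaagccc
Adgrf5, second start: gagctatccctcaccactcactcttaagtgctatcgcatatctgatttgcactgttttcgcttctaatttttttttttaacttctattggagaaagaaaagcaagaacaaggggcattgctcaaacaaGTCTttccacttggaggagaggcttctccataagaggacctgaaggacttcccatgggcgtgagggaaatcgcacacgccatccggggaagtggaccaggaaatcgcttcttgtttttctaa
The Myoc window held 3 SMAD boxes, which began 239, 138 and 19 bases before the start. The Adgrf5 windows held 1 each, 12 and 122 bases before their starts. Such a box is common: 82.9% of 32851 promoter windows of the same length held at least 1, with a median of 2. The longer element CAGAC, which contains the SMAD box, was present in 42.2% of all windows, and here 240 bases before the start of Myoc and 12 bases before the first start of Adgrf5. None of the 3 windows matched GGCGC (32.0% of all windows), the TGFb inhibitory element (4.15%), the glucocorticoid response element (0.387%) or the AP-1 site TGANTCA (6.75%), all searched on both strands. The Myoc window had 46.8% GC and 2 CpG dinucleotides, and the Adgrf5 windows had 54.4% and 44.8% GC with 5 and 7 CpG, beside medians of 52.4% and 6 over all windows.

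Total counts ranged from 6747997 to 18047765, and the TGFb libraries were the deepest, at 18047765 and 16271793. They also differed in composition: the TMM factors that scale each library to its effective size were 0.755 and 0.806 in the TGFb libraries, against 1.09 to 1.13 in the other 5. All CPM below use these effective sizes. The first principal component of the 13367 tested genes held 77.8% of the variance and set the TGFb libraries apart from the rest. BMP2 replicate 1 differed from BMP2 replicates 2 and 3 by a chi-square per gene of 13.6 and 17.8, beside 1.84 between replicates 2 and 3. All 12 chondrocyte markers passed the filter on low counts, with a summed level of 44052 to 51611 CPM over the 7 libraries.

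Myoc, the secreted olfactomedin protein, was the most abundant of the 3 in CPM. Its counts were 293 and 326 with Vehicle, 27 and 20 with TGFb, and 650, 500 and 782 with BMP2. At the Vehicle level, the depth of the TGFb libraries would have given 531 and 512 reads. In CPM, the level was 39.1 and 38.9 with Vehicle (39.0 ± 0.131, SD, n = 2), 1.98 and 1.52 with TGFb (1.75 ± 0.324, n = 2), and 55.6, 66.2 and 73.4 with BMP2 (65.1 ± 8.93, n = 3). The 3 groups did not overlap, with TGFb lowest and BMP2 highest. Mean CPM was 22.3-fold lower with TGFb than with Vehicle, and the ratio of pooled counts was 22.2 (95% exact interval 16.5 to 30.5, counting error only).

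Adgrf5, the adhesion receptor, was the member that was low after both ligands. Its counts were 131 and 124 with Vehicle, 6 and 14 with TGFb, and 61, 42 and 49 with BMP2, where the Vehicle level would have given 219.9 and 212 reads in the TGFb libraries. The level was 17.5 and 14.8 CPM with Vehicle (16.1 ± 1.90, SD, n = 2), 0.441 and 1.07 CPM with TGFb (0.754 ± 0.443, n = 2), and 5.22, 5.56 and 4.60 CPM with BMP2 (5.13 ± 0.486, n = 3). The groups did not overlap, and BMP2 stood between Vehicle and TGFb. Mean CPM was 21.4-fold lower with TGFb than with Vehicle (pooled counts 21.5, 95% exact interval 13.6 to 35.8). The TGFb libraries differed from each other, but their 95% Poisson intervals, 0.162 to 0.959 and 0.583 to 1.79 CPM, overlapped.

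Igkc, the antibody light chain gene, had the lowest counts of the 3 after TGFb1. Counts were 57 and 74 with Vehicle, 2 and 2 with TGFb, and 82, 83 and 118 with BMP2, against 112 and 108 reads that the Vehicle level would have given in the TGFb libraries. The level was 7.61 and 8.83 CPM with Vehicle (8.22 ± 0.868, SD, n = 2), 0.147 and 0.152 CPM with TGFb, and 7.02, 11.0 and 11.1 CPM with BMP2 (9.69 ± 2.32, n = 3). The Vehicle and BMP2 values overlapped and both TGFb values lay far below them. Mean CPM was 54.9-fold lower with TGFb than with Vehicle, but with 4 reads in the TGFb group the interval of the pooled ratio of 55.2 ran from 21.05 to 206. None of the 3 genes was at 0 in any library. In each of them the TGFb and Vehicle libraries did not overlap, which the choice of genes on this contrast largely fixes. The share of all tested genes without such overlap is not given here. By the edgeR test, which is another measure, 56.2% of all tested genes were called in this contrast in either direction.

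**Figure D1:**
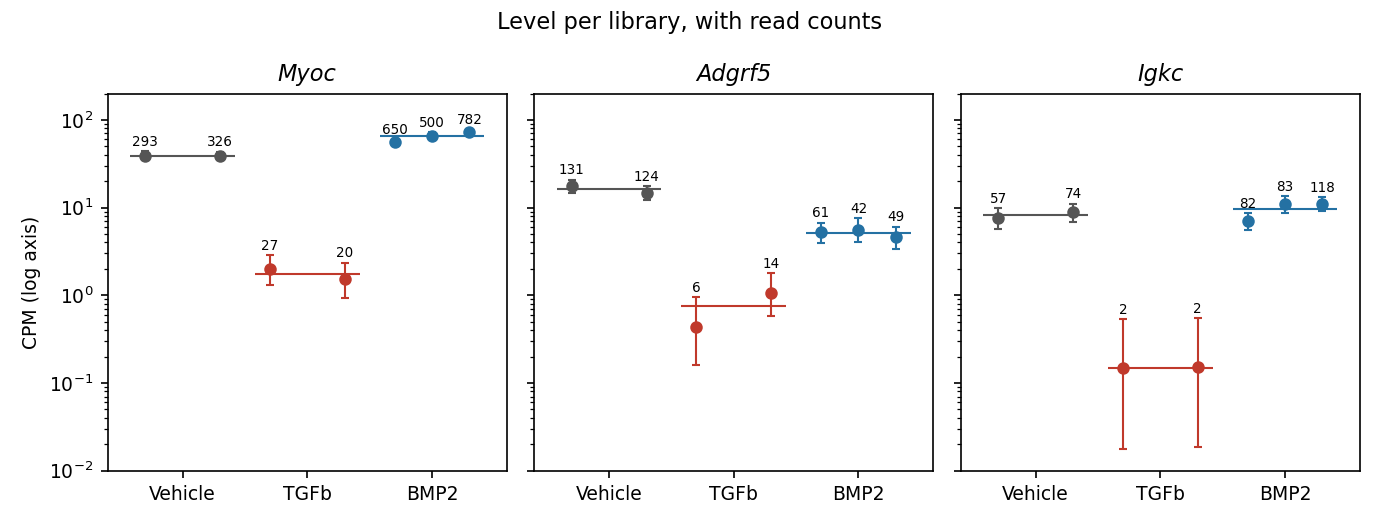
CPM of Myoc, Adgrf5 and Igkc in each library (log axis), with the read count printed above each point, the group mean as a line and the 95% Poisson interval as a bar. All 3 genes are lowest in the TGFb libraries, at 20 and 27, 6 and 14, and 2 and 2 reads; Adgrf5 alone has its BMP2 values below its Vehicle values.

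Scaled to the gene length deposited with the counts, so that levels can be set between genes, the Vehicle libraries held 18.8 ± 0.0634 CPM per kilobase (RPKM, SD, n = 2) for Myoc, 15.5 ± 1.63 for Igkc and 1.79 ± 0.210 for Adgrf5. In the BMP2 libraries the order was the same, at 31.4 ± 4.31, 18.2 ± 4.35 and 0.569 ± 0.0539 RPKM (n = 3), and so it was in the TGFb libraries, at 0.845 ± 0.156, 0.281 and 0.0836 ± 0.0492 RPKM (n = 2). On this scale no 2 of the genes overlapped within a group.

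By edgeR, the fitted log2 fold change of TGFb against Vehicle was −4.46 (SE 0.20) for Myoc, −4.41 (SE 0.30) for Adgrf5 and −5.67 (SE 0.45) for Igkc. The SE of Igkc does not hold all the counting error of its few TGFb reads. The exact interval of its pooled ratio, from 21.05-fold to 206-fold, is wider than this SE implies. The same limit applies to every SE given for Igkc in a contrast with TGFb. Ordered by this value, Igkc, Myoc and Adgrf5 stood at places 6, 17 and 20 from the lowest among 13367 tested genes, and at places 3, 7 and 9 among the 11536 whose mean log2 CPM was 1 or more. More than 15-fold lower in mean CPM were 47 genes (0.352%) of the first set and 19 (0.165%) of the second. The genes named next come from the second set without its Gm, Rik and clone names and without genes that had no TGFb read. Among these, Car3, a carbonic anhydrase gene, lay lowest at 94.2-fold. Just inside the limit lay the chemokine gene Cxcl12 (15.1-fold) and the protein kinase C gene Prkcb (16.2-fold). Just outside it lay the somatostatin receptor gene Sstr2 (14.7-fold) and the lipoprotein lipase gene Lpl (14.2-fold). In CPM of the library totals alone, without TMM, the levels with TGFb were 31.8-fold lower for Myoc, 30.02-fold for Adgrf5 and 78.3-fold for Igkc, and 77 genes (0.576%) of the first set and 35 (0.303%) of the second passed the limit. In bulk RNA, fewer cells of a type and less RNA per cell cannot be told apart.

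The composition of the TGFb libraries touched every contrast with them. Over all tested genes 4067 (30.4%) were higher and 3450 (25.8%) lower with TGFb than with Vehicle at an adjusted p under 0.05 in edgeR, with a median log2 fold change of −0.02. With library totals in place of TMM the counts were 2768 higher and 6539 lower, and the median was −0.53. The fold changes of Myoc, Adgrf5 and Igkc with library totals were −4.97, −4.91 and −6.16. Each lay below that median, which the choice of genes on this contrast fixes.

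The TGFb contrast also ran with transcript length. The median log2 fold change was 2.85 in the 674 tested genes of at most 750 nt, the class of Igkc. It was 0.02 in the 2922 genes above 2000 and up to 3000 nt, the class of Myoc, and −0.57 in the 1019 genes above 7000 nt, the class of Adgrf5. Genes with a log2 fold change below −4 numbered 2, 7 and 5 in the same classes, and the shares called lower were 5.64%, 20.9% and 58.2%. For BMP2 against Vehicle, the medians of the 7 length classes lay between −0.08 and 0.08. In a fit with an offset per library for transcript length and GC content, the fold changes of TGFb against Vehicle were −4.66 (SE 0.21) for Myoc, −3.86 (SE 0.29) for Adgrf5 and −8.55 (SE 0.47) for Igkc. The length class and the offset value of Igkc rest on the 532 nt of its annotated constant-region exon alone. An RNA that also carries variable and joining segments would be longer. Since large falls chose these genes, Igkc had to lie against the trend of its length class and Adgrf5 with that of its own. The offset moved Myoc little. The treatment and this difference between libraries cannot be told apart.

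**Figure D2:**
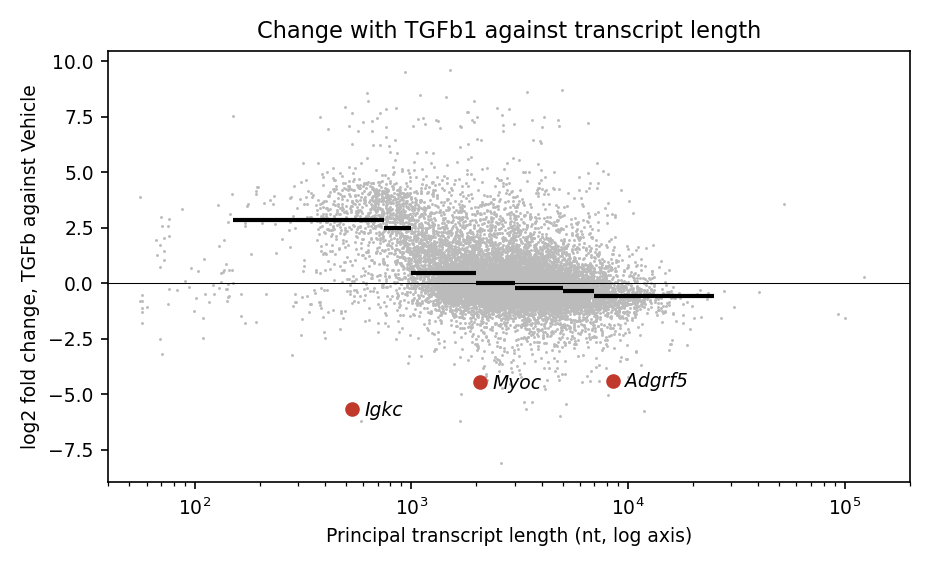
Log2 fold change of TGFb against Vehicle (vertical axis) by transcript length in nucleotides (log axis), for all tested genes with a length and with Myoc, Adgrf5 and Igkc marked; black bars are the medians of 7 length classes. Short genes tend to lie above 0 (median 2.85 up to 750 nt) and long genes slightly below it (−0.57 above 7000 nt), while the 3 marked genes lie at −4.46, −4.41 and −5.67. Igkc is placed by the length of its constant-region exon alone.

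The contrast that did not itself choose the genes is BMP2 against Vehicle, although it shares the Vehicle libraries with the contrast that chose them. It is therefore not wholly free of the choice. Picking genes for high Vehicle values leans it towards a fall with BMP2, the direction of Adgrf5. In it 11.5% of tested genes were called in either direction. The share of tested genes whose BMP2 and Vehicle libraries did not overlap is not given here. Of the 3 genes, Myoc rose, where 5.33% of tested genes were called higher, and Adgrf5 fell, where 6.15% were called lower. Myoc rose by 0.74 on the log2 scale (SE 0.14, 95% interval 0.43 to 1.05, 1.67-fold, adjusted p = 0.00703 in edgeR), and all 3 BMP2 libraries lay above both Vehicle libraries. This call was lost without Vehicle replicate 1 (0.74, adjusted p = 0.0723) and without Vehicle replicate 2 (0.74, adjusted p = 0.0807), when 1 Vehicle library was left. Adgrf5 fell by 1.66 (SE 0.21, 95% interval of the log2 fold change −2.13 to −1.19, 3.15-fold, adjusted p = 0.000742 in edgeR), and all 3 BMP2 libraries lay below both Vehicle libraries. Over all alternatives its adjusted p was at most 0.0143.

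Igkc had a log2 fold change of 0.22 for BMP2 against Vehicle (SE 0.23, adjusted p = 0.601 in edgeR), with a 95% interval of −0.29 to 0.73. BMP2 replicate 1, the library that stood apart from the other BMP2 libraries, gave the lowest of the BMP2 values, and without it the fold change was 0.42 (adjusted p = 0.179). Between the ligands, the log2 fold changes of BMP2 against TGFb, given with no test, were 5.20 (SE 0.20) for Myoc, 5.90 (SE 0.42) for Igkc and 2.75 (SE 0.32) for Adgrf5.

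**Figure D3:**
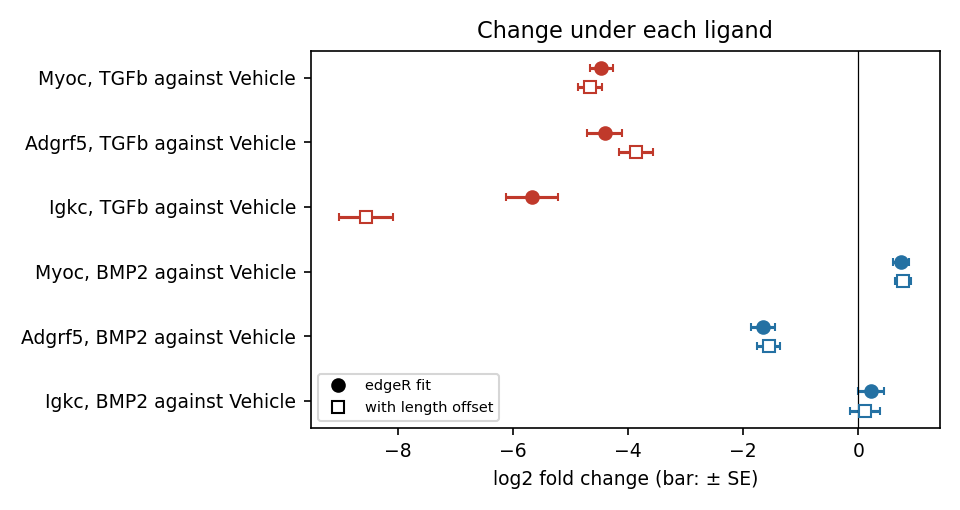
Fitted log2 fold changes of Myoc, Adgrf5 and Igkc with their SE, without (filled) and with (open squares) the offset for transcript length and GC content. In contrasts with TGFb the SE of Igkc does not hold all the counting error of its few reads. Values for TGFb against Vehicle are −4.46, −4.41 and −5.67 and those for BMP2 against Vehicle 0.74, −1.66 and 0.22; the offset moves Igkc most, to −8.55 with TGFb.

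The genes were next set beside the rest of the transcriptome by pattern. Likeness was the root mean square difference (RMS) of centred log2 CPM over the 7 libraries, taken with a prior count of 1 that draws in low values such as those of Igkc with TGFb, among 10813 genes, and all points share the same libraries. Myoc and Igkc differed by an RMS of 0.311, while Adgrf5 differed from Myoc by 1.26 and from Igkc by 1.19. These genes were all chosen for large falls with TGFb, which makes them alike over the Vehicle and TGFb libraries. A small RMS between them is therefore no separate result. The genes nearest to Myoc were the inner ear matrix gene Otog (0.218), Igkc and the imprinted gene Peg10 (0.338). Nearest to Adgrf5 were Cxcl12 (0.239), Thsd4 (0.417) and the matrix protein gene Npnt (0.432), and nearest to Igkc were Myoc, Peg10 (0.390) and Car3 (0.453). Otog stood at 8.67 and 9.55 CPM with Vehicle, 0.514 and 0.457 with TGFb, and 16.4, 14.7 and 17.6 with BMP2. Cxcl12 stood at 9.21 and 7.88 CPM with Vehicle, 0.294 and 0.838 with TGFb, and 3.77, 3.84 and 3.75 with BMP2. Both were picked for their likeness in these libraries, so the order of their groups is no separate result. By Pearson correlation in place of the RMS the nearest genes were others: Adgrg2, Cdsn and Zfp74 for Myoc, Pcdh9, Mrc2 and Cep68 for Adgrf5, and Rspo3, Pkn2 and Cnn3 for Igkc.

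Other immunoglobulin genes were counted beside Igkc. Many are near-identical copies between which reads can be split, so the counts of single names are uncertain. The 11 other constant-region genes held 21 and 24 reads in all with Vehicle, 11 and 9 with TGFb, and 37, 38 and 33 with BMP2. The pooled level was 3.79-fold lower with TGFb than with Vehicle (95% exact interval 2.19 to 6.78). Ighm, the mu heavy chain gene, was the only one of them with enough reads to be tested. It had 12 and 14 reads with Vehicle, 5 and 3 with TGFb, and 27, 24 and 19 with BMP2. Ighm fell with TGFb by 2.41 on the log2 scale (SE 0.53, adjusted p = 0.00295 in edgeR), and its fold change with BMP2 was 0.53 (SE 0.37, adjusted p = 0.413). The lambda light chain gene Iglc1 had 5 and 3 reads with Vehicle, 0 and 0 with TGFb, and 7, 8 and 7 with BMP2. Against the 3 reads that a count of 0 allows over the group, Iglc1 was 4.49-fold lower with TGFb than with Vehicle. The counting error of its few Vehicle reads is not in this value, so it is no lower bound. Igha, the alpha heavy chain gene, went otherwise, with 1 and 5 reads with Vehicle, 6 and 4 with TGFb and 0, 1 and 4 with BMP2.

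The variable and joining segments, which are joined to a constant region in B cells, had few reads, and none after TGFb1. Of 360 such gene names 41 had a read in any library. Together they held 19 and 16 reads with Vehicle, 0 and 0 with TGFb, and 28, 26 and 19 with BMP2. The Vehicle level would have given 30.04 and 28.9 reads in the TGFb libraries. Set against a floor of 3 reads over the TGFb group, the sum was 19.7-fold lower than with Vehicle. This value leaves out the counting error of the Vehicle reads, so it is no lower bound. Kappa segments held most of these reads: 16 and 14 with Vehicle, 0 and 0 with TGFb, and 24, 18 and 17 with BMP2. The reads of all variable and joining segments were spread over several names. With a read were 15 names in the 2 Vehicle libraries (35 reads) and 35 in the 3 BMP2 libraries (73 reads), 9 of them in both. Of the kappa names, 10 had a read with Vehicle, 25 with BMP2 and 8 with both. More reads were pooled with BMP2, so these numbers of names do not compare the groups. Jchain, which joins secreted antibody chains, had 2 and 1 reads with Vehicle, 0 and 0 with TGFb, and 4, 0 and 5 with BMP2.

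**Figure D4:**
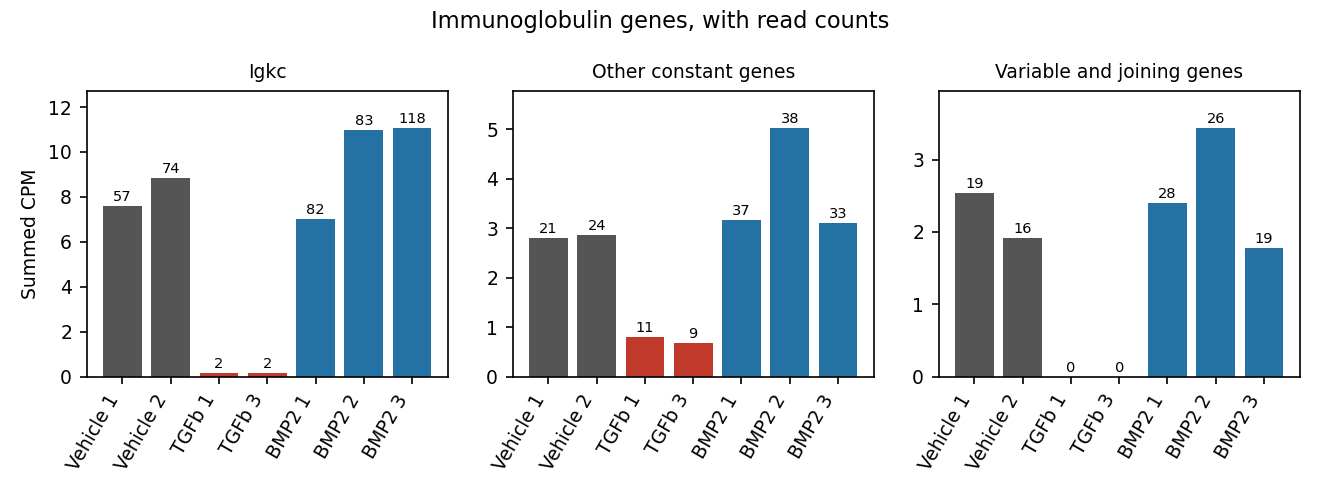
Reads in each library for Igkc, the 11 other constant-region genes and the 360 variable and joining gene names, as CPM. The TGFb libraries are lowest in every panel, with 2 and 2, 11 and 9, and 0 and 0 reads.

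B and plasma cell markers were near the limit of detection. Of 20 markers in the file 0 could be tested, 3 had no read at all and 18 never passed 5 reads in a library. Cd79a, the B cell receptor signalling chain, had 0 reads in both Vehicle libraries. There the 20 markers together had 9 and 13 reads, and Igkc had 57 and 74. The summed level of the 20 markers was 1.20 to 1.55 CPM with Vehicle, 2.13 to 3.23 with TGFb and 1.37 to 2.12 with BMP2. The 2 markers that passed 5 reads did so with TGFb: Vpreb1 (20 and 13 reads) and Pou2af1 (8 and 3). Over the other 18, a sum chosen after the values were seen, the level was 1.19 to 1.20 CPM with Vehicle, 0.914 to 1.17 with TGFb and 1.37 to 1.502 with BMP2. The part of B and plasma cells in the Igkc values was not tested. Of 21 leukocyte markers 14 were tested, and with TGFb 6 rose and 1 fell, beside 30.4% and 25.8% of all tested genes, with a summed level of 194 to 225 CPM against 39.5 to 52.4 with Vehicle. H2-Ab1, an antigen-presenting class II gene, rose by 4.33 (3.27 with the length offset). Fcer1g and Tyrobp, short genes of 674 and 564 nt, rose by 3.33 and 3.15, but had fold changes of 0.28 and −0.04 with the offset, under which 1 marker rose and 3 fell, against 25.4% of tested genes higher and 23.6% lower. The fall, that of Adgre1, was lost without TGFb replicate 3, without either Vehicle library and with DESeq2, and with library totals 5 markers rose and 3 fell. The part of leukocytes in the Igkc values was not tested.

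Endothelial markers were followed because endothelium is a known site of Adgrf5. Of 22 in the file 6 were tested, and 5, among them the defining genes Cdh5 and Cldn5, had 0 reads in all 7 libraries. Pecam1 had 0 and 0 reads with Vehicle, 4 and 6 with TGFb, and 13, 12 and 16 with BMP2. In the Vehicle libraries the 22 markers together had 276 and 285 reads, and Adgrf5 had 131 and 124. With TGFb 3 of the 6 rose and 0 fell (over all tested genes 30.4% and 25.8%): Erg by 0.93 (SE 0.16, adjusted p = 0.000573), Eng by 0.70 (SE 0.16, adjusted p = 0.0036), and Pecam1 from 0 reads (adjusted p = 0.0183, all in edgeR). The counts were 2 and 2 with library totals and 3 and 1 with the length offset. The summed level of the 22 markers, of which 14 never passed 5 reads in a library, was 34.0 to 36.8 CPM with Vehicle, 56.0 to 56.1 with TGFb and 39.2 to 46.4 with BMP2. The part of endothelium in the Adgrf5 values was not tested. Among the other cell types, 4 of 8 fibroblast, 4 of 4 pericyte and smooth muscle, 2 of 4 tendon and 2 of 2 skeletal muscle markers tested were higher with TGFb, and 0 lower (over all tested genes 30.4% and 25.8%). With the length offset 0 of the 2 muscle markers and 1 of the 4 tendon markers were higher; with library totals 2 of the 8 fibroblast and 1 of the 4 tendon markers were lower. Of the 12 chondrocyte markers 2 were higher and 7 lower (2 and 10 with library totals), with Matn1, a cartilage matrix gene, at −2.99 and the lubricin gene Prg4 at 4.01.

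Adgrf5 belongs to the adhesion G protein-coupled receptors, of which 29 others were in the file and 12 were tested. With TGFb 6 of the 12 fell and 1 rose, with a median log2 fold change of −0.57. Over all genes 25.8% were lower and 30.4% higher, with a median of −0.02. With library totals 10 fell and 1 rose. Over all tested genes the share called lower grew with transcript length. It was 30.3% above 3000 and up to 5000 nt, the class of Adgrg2 and Adgrl2. Above 5000 and up to 7000 nt, the class of Adgrg6, it was 41.2%, and above 7000 nt, the class of Adgrl1, 58.2%. The part of length in these falls was not tested. Adgrg2 fell by 3.51 (SE 0.15), from 130 ± 9.97 to 11.4 ± 0.388 CPM (n = 2 and 2). Adgrg6, a receptor with a known role in the spine and in cartilage, fell by 1.64 (SE 0.14), and Adgrl2 by 1.13 (SE 0.17). Adgra1 rose by 7.37 (SE 0.53), from 1 and 0 reads with Vehicle to 187 and 146 with TGFb. With the length offset 5 fell and 1 rose, with a median of −0.53, beside 23.6%, 25.4% and −0.03 over all tested genes. Adgrl1 was the receptor that no longer passed (−0.31). With BMP2 Adgra3 (0.71) and Adgrg2 (0.53) rose and Celsr2 (−2.17) and Adgrg6 (−1.65) fell. Adgrg6 thus fell with each ligand, as Adgrf5 was low with each, whereas Adgrg2 fell with TGFb and rose with BMP2; both contrasts share the Vehicle libraries. Neither rise with BMP2 passed without Vehicle replicate 1, without Vehicle replicate 2 or without BMP2 replicate 3, and 1 passed without BMP2 replicate 2. The closest relative by position, Adgrf1, had 0 reads in every library.

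**Figure D5:**
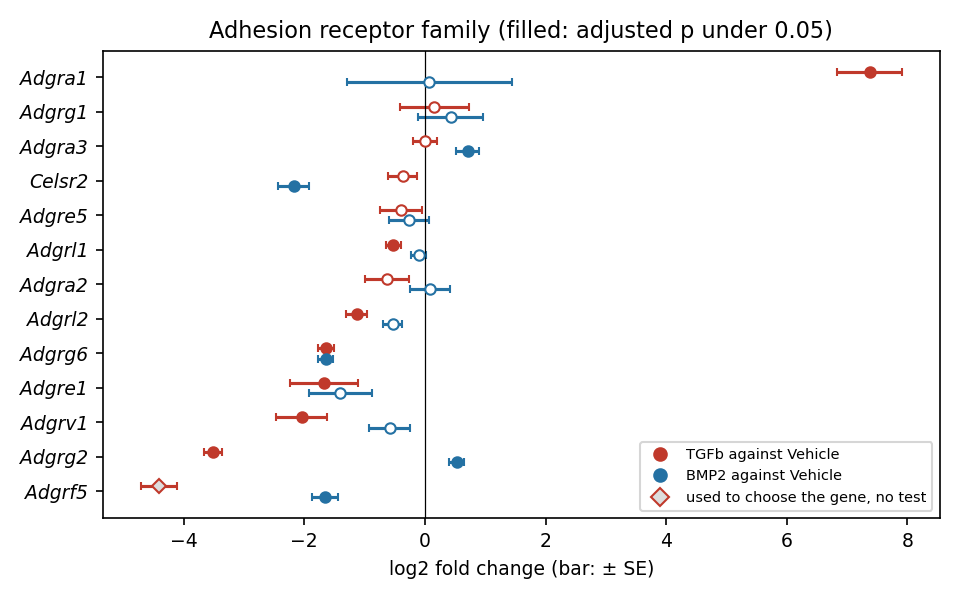
Log2 fold changes with SE of the 12 tested adhesion receptor genes and Adgrf5, for TGFb (red) and BMP2 (blue) against Vehicle; filled points have an adjusted p under 0.05. Adgra1 stands at 7.37 and Adgrg2 at −3.51 with TGFb, and Adgrf5 (grey diamond, −4.41, not tested because it was chosen on this value) lies lowest.

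Of 9 tested genes of Adgrf5 ligands and its Gq signalling, 4 rose and 3 fell with TGFb, beside 30.4% and 25.8% of all tested genes; with library totals 1 rose and 3 fell. Fndc4, which encodes a proposed ligand of the receptor, rose by 1.10 (SE 0.17, adjusted p = 0.000334 in edgeR). The inositol trisphosphate receptor genes split, with Itpr2 up by 0.69 and Itpr1 at −0.97, and the phospholipase gene Plcb1 fell by 1.08 (SE 0.12). With BMP2 0 rose and 2 fell, Plcb1 and Itpr1, both at −0.81. Sftpd, the surfactant protein ligand, had 0 reads in every library.

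Myoc has relatives with an olfactomedin domain, of which 6 of 12 were tested. With TGFb 3 rose and 2 fell, beside 30.4% and 25.8% of all tested genes: Olfml3 rose by 2.68 (SE 0.19), from 18.8 ± 4.31 to 121 ± 0.674 CPM (n = 2 and 2), Olfm2 by 3.26 (SE 0.41) and Olfml2b by 0.65. Olfml2b did not pass with the length offset (0.56), and 2 of the 6 were higher with DESeq2, and 2 higher and 3 lower with library totals. The 2 that fell were Adgrl2 and Adgrl1, which are adhesion receptors that carry this domain. With BMP2 Olfm2 rose by 1.77 (SE 0.44, adjusted p = 0.0267 in edgeR) and 0 fell, a call that was lost without either Vehicle library and without BMP2 replicate 1 or 3.

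Reported partners of myocilin gave 2 rises and 2 falls with TGFb among 14 tested genes, below the shares of 30.4% and 25.8% over all tested genes, and 1 rise and 8 falls with library totals. The Wnt inhibitor gene Frzb fell by 3.29 (SE 0.13), from 124 ± 5.57 to 12.7 ± 1.02 CPM (n = 2 and 2), and the Wnt receptor gene Fzd7 by 1.21. The matrix genes Sparc and Fn1 rose by 1.72 (SE 0.23) and 0.71 (SE 0.12). With BMP2 3 rose and 3 fell, with Cav1, the caveolin gene, at 1.34 (SE 0.11) and Frzb at −0.56 (SE 0.11). Of these falls 0 passed without Vehicle replicate 1 or without Vehicle replicate 2, and 1 without BMP2 replicate 3; of the rises 1 passed without Vehicle replicate 2. Glucocorticoid-responsive genes were counted because the hormone induces Myoc in the eye. Of 15 tested 6 rose and 5 fell with TGFb, with a median of −0.14, near the 30.4%, 25.8% and −0.02 over all tested genes; with library totals 4 rose and 8 fell. Nr3c1, the glucocorticoid receptor gene, fell by 1.32 (SE 0.14), and Sgk1, a kinase gene, rose by 1.12 (SE 0.13). The metallothionein genes Mt1 and Mt2, of 549 and 511 nt, rose by 5.18 and 4.40, and by 1.88 and 1.18 with the length offset.

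Of 10 genes of the TGFb-SMAD2/3 response 8 rose with TGFb and 0 fell (over all tested genes 30.4% and 25.8%; 6 and 0 with library totals), with a median log2 fold change of 1.46, with Pmepa1, an inhibitor of the pathway, at 5.03 (SE 0.15) and Il11 at 8.22 (SE 0.28). With BMP2 8 of the 10 rose and 1 fell (5.33% and 6.15% over all tested genes), with a median of 1.151; both contrasts share the Vehicle libraries. Of the rises with BMP2 4 passed without Vehicle replicate 1, and 5 without Vehicle replicate 2, BMP2 replicate 2 or BMP2 replicate 3. These genes were named with earlier results of the same data in view.

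The neighbouring protein-coding genes described here had few or no reads or a smaller fold change with TGFb than the genes they flank. Vamp4, a vesicle fusion gene that ends 40.1 kb before Myoc, fell with TGFb by 0.65 (SE 0.15, adjusted p = 0.00371 in edgeR). Prrc2c, 21.03 kb beyond Myoc, rose by 0.60 (SE 0.15, adjusted p = 0.00656), and by 1.18 with the length offset. Adgrf1, the gene before Adgrf5, had 0 reads and Mep1a, the gene after it, had 1 read in all 7 libraries. Rpia, a pentose phosphate enzyme gene 38.8 kb beyond Igkc, had a fold change of −0.13 (adjusted p = 0.728).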

How the data were processed

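Total RNA was sequenced in bulk on a HiSeq4000, per the labels' protocols. The authors deposited 1 table of whole-number read counts per gene name and library, with a gene length. The submitters' processing notes name mm10, STAR 2.4.2a, cutadapt, featureCounts, Subread and DESeq2 without their roles. How multi-mapped reads were treated, which annotation was used and whether strand was used were not given in the sources used here.

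From these counts edgeR 4.0.16 (R 4.3.3) kept 13367 of 52459 names by filterByExpr, scaled libraries by TMM and fitted 1 quasi-likelihood model over all 7 libraries (4 residual degrees of freedom, common coefficient of variation 0.133). Tests were 2-sided, with Benjamini-Hochberg adjustment over the genes tested and a limit of 0.05. CPM use TMM-scaled sizes, and intervals of counts are exact at 95%. Of the names, 45707 matched GENCODE M21 as given, 2402 with another separator and 202 by synonym; 4148 did not match. The length offset used lowess trends per library (spans 0.15 for transcript length and 0.3 for GC content). The fit was tested on simulated data.

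Members and gene lists were chosen with earlier results of these data known. Named genes are the 3 members, the 3 most alike to each, those at the 15-fold limit, up to 4 per list with the smallest p, the nearest protein-coding genes (except for a result not reported here) and the immunoglobulin constant genes; further list genes were named after their values were seen. Alternatives were DESeq2 1.42.0, its size factors, library totals, no filter, only the groups compared, the replicate block, the length offset and leaving out each library.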

Additional observations from a re-analysis of the deposited data

How the results depend on the processing

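Every alternative kept the direction of all 3 members in TGFb against Vehicle and BMP2 against TGFb, and of Myoc and Adgrf5 in BMP2 against Vehicle. Igkc in BMP2 against Vehicle, not called in any, ran from −0.02 to 0.42. Fold changes with TGFb that moved by more than the combined SD of the replicates of their gene, and counts of genes that moved by over 1.5 times, are given next; the cause was not tested. With library totals, TGFb against Vehicle gave −4.97 for Myoc and −6.16 for Igkc, BMP2 against TGFb gave 5.70 and 6.37, and 6539 genes rather than 3450 were lower with TGFb. With the length offset Igkc stood at −8.55 and 8.67 in these contrasts. Adgrf5, whose TGFb libraries spread more, moved by less than that SD but by more than its SE: TGFb against Vehicle was −4.91 with library totals and −3.86 with the offset, and BMP2 against TGFb 3.24 and 2.31. The replicate numbers did not pair the libraries (correlations of same-numbered deviations from −0.139 to −0.000945). With the replicate block, the rise of Myoc with BMP2 was 0.68 (adjusted p = 0.0564 in edgeR), and BMP2 called 354 genes higher and 417 lower, rather than 713 and 822. With the replicate block and the offset together, TGFb against Vehicle gave −4.74 for Myoc and −8.61 for Igkc, BMP2 against TGFb 8.59 for Igkc, and BMP2 called 474 higher and 433 lower.

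Leaving out 1 library at a time, TGFb against Vehicle ran from −4.66 to −4.28 for Myoc, −5.15 to −3.90 for Adgrf5 and −5.82 to −5.56 for Igkc, and BMP2 against Vehicle from 0.64 to 0.84, −1.77 to −1.53 and 0.10 to 0.42. BMP2 against TGFb ran from 5.02 to 5.40, 2.24 to 3.49 and 5.78 to 6.09. BMP2 called 245 to 810 genes higher and 312 to 891 lower, with the lowest numbers without Vehicle replicate 2. Where 1 library was left in a group, it was assumed to vary like the others. Of 480 counts of list members under an alternative, 410 stayed within 1.5 times. The size of the Igkc fall rests on 2 and 2 reads in the TGFb libraries.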
